A study of Mus musculus with 10 samples.

Results

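Respiratory complex I of mitochondria was followed through the 43 genes whose array annotation gives a single symbol that begins with Nduf, of 19938 genes with a symbol of their own on the array. They cover 34 subunits of the complex, 7 Ndufaf assembly factors and 2 genes that carry the name but act elsewhere, Ndufa4 and Ndufa4l2. Where several probe sets shared a symbol, the one of highest mean over all arrays was taken. All 43 passed the filter on dim rows, which kept 14953 genes. Another 3 probe sets list Nduf genes together with a copy (Ndufb4 with Ndufb4b, Ndufs5 with a pseudogene) and were left out of the members.

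The cells were B220+ cells sorted from pre-B colonies that bone marrow had formed in methylcellulose over 7 days. There were 2 groups of 5 independently cultured mice: Hspa9+/- (heterozygous, Het) and Hspa9+/+ littermates (wild type, WT). Hspa9 encodes mortalin, the main Hsp70 chaperone of the mitochondrial matrix, which pulls proteins in from the cytosol and takes part in building iron-sulfur clusters. The labels do not say how the allele was disrupted, nor the age, sex or strain of the mice, and the colonies hold whatever B220+ cells the medium supports. RNA was amplified and hybridised to 1 Mouse Gene 1.0 ST array per mouse, and the values are RMA log2 units. A difference is Het minus WT. In bulk RNA, fewer cells of a type and less RNA per cell cannot be told apart.

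Complex I oxidises NADH and passes the electrons through a chain of iron-sulfur clusters to ubiquinone, while its membrane arm pumps protons. The N module binds NADH, the Q module reduces ubiquinone, and the membrane arm is built in a proximal and a distal part around subunits encoded in mitochondrial DNA. The nuclear encoded subunits are made in the cytosol and imported, and assembly factors join the modules without staying in the finished enzyme. Dividing B cell precursors use respiration as well as glycolysis.

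Promoter windows are shown for 4 members, since many members moved together between arrays. Sequences are from RefSeq (GRCm38.p6), which held windows for 38 of the 43 members. Each is the 250 bases before the gene's start, 5′ to 3′ on the gene's strand, with matches on either strand in capitals to the cores of NRF1 (CGCATGCG, its own reverse complement), ETS factors (CCGGAAG), YY1 (AAGATGGC) or to the CCAAT box. These motifs do not contain one another. Ndufs5 and Ndufb7 are the members of smallest p, Ndufa8 is among those that followed the other members most closely (r = 0.93), and Ndufaf4 went the other way (r = -0.36).
Ndufs5, chr4:123718187-123718436, minus strand: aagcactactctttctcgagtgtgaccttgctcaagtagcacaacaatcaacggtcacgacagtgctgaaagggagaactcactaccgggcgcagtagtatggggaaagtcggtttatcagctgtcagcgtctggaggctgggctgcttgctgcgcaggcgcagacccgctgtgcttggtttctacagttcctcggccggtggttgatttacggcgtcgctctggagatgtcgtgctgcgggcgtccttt
Ndufb7, chr8:83566508-83566757, plus strand: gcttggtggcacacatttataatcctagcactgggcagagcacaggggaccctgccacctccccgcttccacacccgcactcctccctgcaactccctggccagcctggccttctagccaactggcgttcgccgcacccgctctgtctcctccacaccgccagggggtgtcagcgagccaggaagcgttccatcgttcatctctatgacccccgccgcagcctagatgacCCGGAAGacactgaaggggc
Ndufa8, chr2:36049339-36049588, minus strand: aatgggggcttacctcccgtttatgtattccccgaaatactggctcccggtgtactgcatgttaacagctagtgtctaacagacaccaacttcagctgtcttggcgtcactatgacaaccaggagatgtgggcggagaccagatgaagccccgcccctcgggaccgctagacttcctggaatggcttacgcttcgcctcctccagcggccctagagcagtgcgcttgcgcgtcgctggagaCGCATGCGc
Ndufaf4, chr4:24897833-24898082, plus strand: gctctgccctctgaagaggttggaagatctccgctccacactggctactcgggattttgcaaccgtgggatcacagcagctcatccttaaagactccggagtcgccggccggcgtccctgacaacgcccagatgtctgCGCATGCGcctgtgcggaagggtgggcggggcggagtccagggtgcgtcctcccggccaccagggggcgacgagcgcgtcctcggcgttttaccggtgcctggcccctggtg

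In the whole windows, which run on 50 bases past the start, the YY1 core stood in 7 of 38 members (18.4%), against 4.49% of the tested genes with a window and 3.19% of all genes with one. The NRF1 core stood in 4 of 38 members (10.5%, against 3.67% and 2.07%), the ETS core in 5 (13.2%, against 17% and 9.93%) and the CCAAT box in 12 (31.6%, against 41.3% and 41.1%). All 7 YY1 cores lay on the gene's own strand and began 23 to 39 bases after the start. Of 11815 tested genes with a window, 530 held the core anywhere. In 140 (1.18%) it lay on the gene's own strand and began 20 to 40 bases after the start. That range takes in all 7 sites of the members, and the shares were not tested. YY1 is a zinc finger factor whose site often sits just inside the first exon of genes for mitochondrial and ribosomal proteins. The sites are shown as 20 bases each with the core in capitals, since all 7 lay on the same strand and at a like distance from the start.
Ndufa3, chr7:3617387-3617406, plus strand: ccaagaacAAGATGGCcggg
Ndufa9, chr6:126849104-126849123, minus strand: tgtgggagAAGATGGCggcc
Ndufb8, chr19:44555393-44555412, minus strand: agaaggtgAAGATGGCtgcc
Ndufc1, chr3:51408922-51408941, minus strand: tgcggaacAAGATGGCgccg
Ndufs4, chr13:114388048-114388067, minus strand: cctacaggAAGATGGCggcg
Ndufs6, chr13:73328438-73328457, minus strand: tcaccggcAAGATGGCggcg
Ndufs7, chr10:80249465-80249484, plus strand: ccgaggccAAGATGGCggcg
A match is a description of the letters and not a site of binding. The 7 genes with the YY1 core differed between genotypes by -0.04 (Ndufs4) to 0.27 (Ndufs7).

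The targeted gene was lower in the arrays labelled Het, with overlap. Hspa9 averaged 9.18 ± 0.244 in Het arrays and 9.92 ± 0.378 in WT arrays (SD, n = 5 each), a ratio of 60.3%. The exact two-sided permutation test of this gene over 252 splits gave p = 0.0159, where 0.0079 is the smallest p possible. In limma over all genes its adjusted p was 0.345. Markers of the B lineage had means of 10.13 to 10.58 in Het arrays and 10.55 to 10.65 in WT arrays over 13 measured genes, of which 4 had a difference above 0. Rag1 was at -0.79 and Rag2 at -0.59, while the surrogate light chain genes Vpreb2 and Igll1 were at 0.51 and 0.28. Macrophage markers were present and uneven: their mean ran from 7.42 to 10.09 in Het arrays and from 5.93 to 9.62 in WT arrays, highest in Het 2 and WT 1, with 15 of 16 genes above 0 in the difference (Lyz2 1.45, Tyrobp 1.59). The differences of smallest p were 0.24 for Mmp9 and 0.38 for Ctsg among neutrophil markers (14 of 14 above 0), 1.63 for Siglech and 0.72 for Bst2 among plasmacytoid dendritic cell markers (4 of 5), 0.68 for Nkg7 and 0.71 for Thy1 among T and NK cell markers (6 of 7), and 0.19 for Slc4a1 and 0.11 for Gp9 among erythroid and megakaryocyte markers (7 of 7). Ctsg averaged 4.73 in Het arrays and 4.34 in WT arrays, so it passed the filter cutoff of 4.52 only through the Het arrays. Among rows above the median row mean 6 neutrophil markers were left, with 6 of 6 above 0. The mean of the T and NK cell markers ran from 5.93 to 6.18 in Het arrays and 5.23 to 5.82 in WT arrays. The list held 11 genes, of which 7 passed the filter and 2 lay above the median row mean. The groups did not overlap in 3 of these 7 genes, against 2.28% of all genes. The 3 were dim: Nkg7, Cd3e and Il2rb averaged 5.65, 5.40 and 4.93 in Het arrays. In WT arrays they averaged 4.97, 5.02 and 4.54, under the array medians of 5.38 to 5.49. By limma, 5 of the 7 had an unadjusted p under 0.05, against 11% of all genes. So did 4 of 5 plasmacytoid dendritic cell markers, 5 of 13 B lineage markers and 0 of 16 macrophage markers. The sort marker gene Ptprc (B220) was at -0.68 (limma adjusted p = 0.490). Xist was low in Het 1 and WT 1, at 4.35 and 4.73, and lay between 8.999 and 11.24 in the other arrays. None of the single genes given in this paragraph passed the adjusted threshold of 0.05.

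No complex I gene was called different between Het and WT cells. By limma with Benjamini-Hochberg adjustment over all genes, 0 of 43 members passed 0.05, as did 0 of all 14953 genes (0%). The adjusted p of the members ran from 0.403 to 0.995. At an unadjusted p under 0.05 there were 2 members, Ndufs5 and Ndufb7, both higher in Het, which is 4.65% of the members. Over all genes that share was 11%, made up of 6.79% higher and 4.25% lower in Het. The count of 2 was 0 without WT 3 or without WT 4 (7.46% and 7.06% of all genes in those fits), 1 without Het 4 or Het 5 (9.54% and 7% of all genes) and 3 without Het 3 (9.62%). It was 6 of 43 without WT 2, where the share over all genes was 13.6%. The groups overlapped in all 43 members, while they did not overlap in 2.28% of all genes.

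Small positive differences predominated. The difference was above 0 in 36 of 43 members (83.7%), against 61.3% of all genes, and below 0 in 7. The median difference was 0.12 over the members and 0.058 over all genes. The members' median was 0.075 without Het 5 and 0.076 without WT 3. With quantile normalization of the tested rows, 34 of 43 members and 53% of all genes were above 0, with medians of 0.098 and 0.014. The members moved together between arrays, so these counts do not stand for 43 separate observations. No 95% interval reached a doubling or a halving: the lowest bound of any member was -0.81 (Ndufaf2) and the highest was 0.69 (Ndufaf3).

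**Figure D1:**
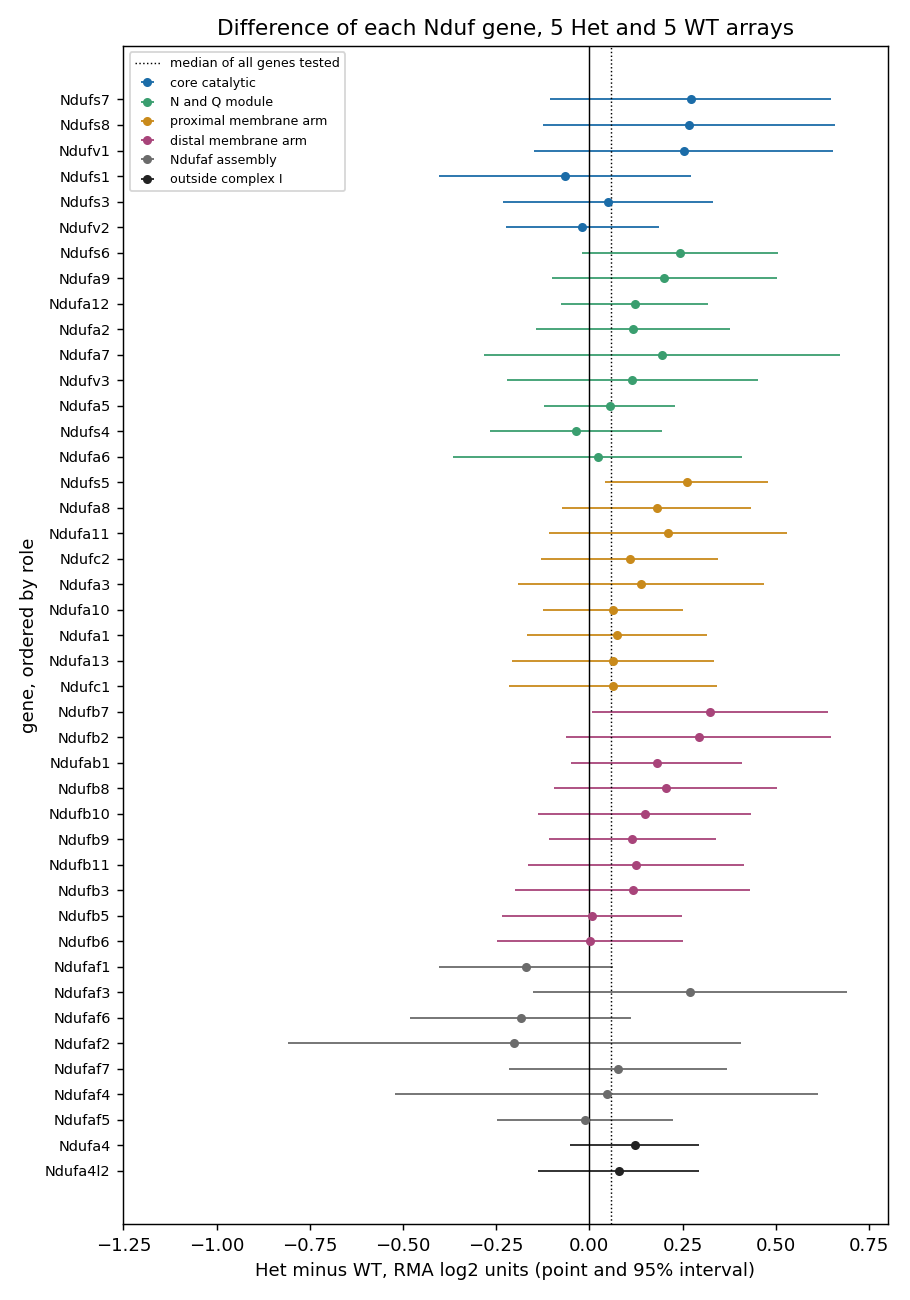
Difference between Het and WT arrays in RMA log2 units for each of the 43 Nduf genes, as point and 95% interval from limma, coloured and ordered by role (5 arrays per genotype). The solid line is 0 and the dotted line is the median of all genes tested, 0.058. 36 points lie above 0, and the intervals of Ndufs5 and Ndufb7 do not reach 0.

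The core catalytic subunits are those that carry out electron transfer. Values are given for 6 of the 7 in the list. Ndufs7, which holds the last iron-sulfur cluster before ubiquinone, measured 8.99, 9.13, 8.82, 9.19 and 9.43 in Het 1 to 5, against 9.18, 9.17, 8.55, 8.45 and 8.84 in WT 1 to 5. WT 3 and WT 4 were the lowest and the groups overlapped, with a difference of 0.27 (SE 0.171, limma adjusted p = 0.539). Ndufs8, a Q module subunit with a pair of clusters, measured 10.45, 10.59, 10.36, 10.73 and 10.85 in Het arrays, against 10.57, 10.82, 9.96, 9.96 and 10.33 in WT arrays. WT 3 and WT 4 were again lowest, WT 2 lay among the Het arrays, and the difference was 0.27 (SE 0.178, limma adjusted p = 0.551). Ndufv1, the subunit that binds NADH and the flavin, measured 9.14, 9.20, 8.84, 9.56 and 9.71 in Het arrays, against 9.06, 9.50, 8.88, 8.81 and 8.93 in WT arrays. Het 3 lay among the lowest WT arrays, and the difference was 0.25 (SE 0.182, limma adjusted p = 0.570).

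The other core subunits had smaller differences. Ndufs3 of the Q module, which carries no cluster, was at 0.05 (95% interval -0.23 to 0.33), and its second probe set was at 0.01. Ndufv2, the small cluster protein beside Ndufv1, was at -0.02 (95% interval -0.22 to 0.19). Ndufs1, the large cluster subunit of the N module, measured 8.35, 8.05, 8.03, 8.08 and 7.92 in Het arrays, against 7.65, 8.12, 8.53, 8.27 and 8.17 in WT arrays. WT 1 was the lowest and WT 3 the highest of all 10 arrays, and the difference was -0.07 (95% interval -0.40 to 0.27). It was -0.19 without WT 1, 0.030 without WT 3 and 0.043 with macrophage markers as a covariate. Of the 5 subunits with iron-sulfur clusters (Ndufs1, Ndufs7, Ndufs8, Ndufv1 and Ndufv2), 3 were above 0 and 2 below, and none had an unadjusted p under 0.05.

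The accessory subunits of the N and Q modules, 9 measured of 9, had 8 differences above 0 and 1 below, with a median of 0.12. The median was 0.043 without WT 3 and 0.075 without Het 5, with 7 of 9 above 0 in both, and 0.045 with macrophage markers as a covariate, with 6 of 9 above 0. Ndufs6, a zinc-binding subunit added late in assembly, measured 10.11, 10.08, 10.11, 10.33 and 10.56 in Het arrays, against 10.05, 10.13, 9.83, 9.84 and 10.13 in WT arrays. Het 4 and Het 5 lay above every WT array and Het 1 to 3 lay within their range, with a difference of 0.24 (SE 0.119, limma adjusted p = 0.477). Ndufa9, at the joint between the Q module and the membrane arm, was at 0.20 (SE 0.137), and Ndufa12, which takes the place that the assembly factor Ndufaf2 holds before it, was at 0.12 (SE 0.0899). Ndufa2 is the one member on the same chromosome as Hspa9, with 32 protein-coding genes between them in the RefSeq gene table. It averaged 10.72 ± 0.140 in Het arrays and 10.61 ± 0.206 in WT arrays (SD, n = 5 each), a difference of 0.12 (95% interval -0.14 to 0.38), and 0.037 without WT 3. Ndufs4, a subunit often mutated in human Leigh syndrome, was the one below 0, at -0.04 (95% interval -0.27 to 0.20). Ndufa7, Ndufv3, Ndufa5 and Ndufa6 lay between 0.02 and 0.20.

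The proximal membrane arm had all 9 of its accessory subunits above 0, by 0.06 to 0.26, with a median of 0.11 and 1 at an unadjusted p under 0.05. With plasmacytoid dendritic cell markers as a covariate 5 of 9 were above 0, and with macrophage markers 7 of 9. The median was 0.064 without WT 4 and 0.18 without WT 2. The one at an unadjusted p under 0.05 was Ndufs5, a small subunit on the side of the intermembrane space. It measured 11.49, 11.48, 11.46, 11.46 and 11.51 in Het arrays, against 11.16, 11.54, 11.11, 11.11 and 11.18 in WT arrays. The Het arrays lay close together and above 4 of the 5 WT arrays, while WT 2 lay above all of them. The difference was 0.26 (SE 0.0994, unadjusted p = 0.0236 and adjusted p = 0.403 by limma), and it was 0.34 without WT 2 (adjusted p = 0.296). A second Ndufs5 probe set, shared with its pseudogene and so no member, was at 0.11. Next by p were Ndufa8, another intermembrane space subunit, at 0.18 (SE 0.115), and Ndufa11, a membrane protein in contact with complex III, at 0.21 (SE 0.145). A second Ndufa11 probe set, with a mean of 11.07 against 11.09, was at 0.27. Ndufa1, which lies on the X chromosome, was at 0.07 (SE 0.110), at 0.064 with the Xist level as a covariate, at 0.0084 without WT 3 and at 0.0033 with macrophage markers as a covariate. Ndufa3, Ndufa10, Ndufa13, Ndufc1 and Ndufc2 lay between 0.06 and 0.14. A second Ndufc1 probe set, with a lower mean of 7.62, was at 0.13.

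The distal membrane arm also had all of its measured accessory subunits above 0, 10 of 10, with a median of 0.14 and 1 at an unadjusted p under 0.05. Its list held 16 entries, and the rest had no value of their own here. With quantile normalization, cyclic loess, array weights, macrophage markers as a covariate, or without WT 1 and Het 2 together, 8 of the 10 were above 0. The same count held without any 1 of Het 2, Het 4, Het 5, WT 1, WT 3 or WT 4, and without WT 2 the median was 0.22. Ndufb7, which like Ndufs5 faces the intermembrane space, measured 11.11, 11.23, 11.15, 11.48 and 11.63 in Het arrays, against 11.08, 11.24, 10.79, 10.70 and 11.17 in WT arrays. Het 4 and Het 5 were the highest and WT 3 and WT 4 the lowest, with the rest overlapping. The difference of 0.32 was the largest of the 43 members (SE 0.144, unadjusted p = 0.0457 and adjusted p = 0.448 by limma). Ndufb2 measured 9.53, 9.81, 9.26, 9.76 and 9.86 in Het arrays, against 9.63, 9.69, 9.19, 9.08 and 9.15 in WT arrays, with 3 WT arrays below every Het array and a difference of 0.29 (SE 0.161, limma adjusted p = 0.503). Ndufab1, the mitochondrial acyl carrier protein, which also serves lipoic acid and iron-sulfur cluster synthesis, was at 0.18 (SE 0.104), and its second probe set was also at 0.18. Ndufb11, encoded on the X chromosome, was at 0.12 (SE 0.132), at 0.11 with the Xist level as a covariate, and at 0.057 without WT 4. A second Ndufb11 probe set, with a lower mean of 9.33, was at 0.14 and was not fitted with the Xist level. The chromosome was read from the gene's annotation, and where either probe set lies in the genome was not checked. Ndufb5 and Ndufb6 had differences next to 0, at 0.0066 (95% interval -0.24 to 0.25) and 0.0019 (95% interval -0.25 to 0.25). Ndufb3, Ndufb8, Ndufb9 and Ndufb10 lay between 0.12 and 0.21.

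**Figure D2:**
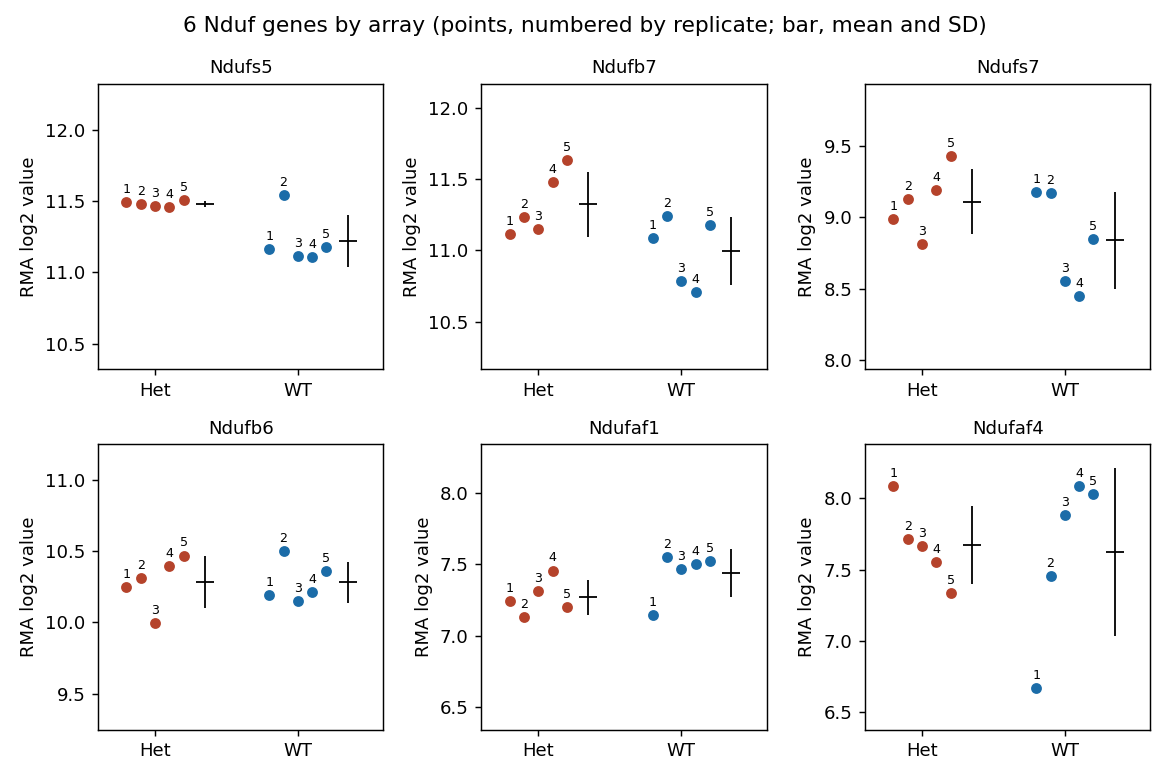
RMA log2 values of 6 Nduf genes in the 5 Het arrays (left of each panel) and the 5 WT arrays (right), as points numbered by replicate with the mean and SD beside them; each panel spans the same range of log2 units. Ndufs5 is tight in Het with WT 2 above it, Ndufb7 and Ndufs7 have WT 3 and WT 4 lowest, Ndufb6 has equal means, and WT 1 is lowest of the WT arrays for Ndufaf1 and Ndufaf4.

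The assembly factors as a list lay near 0, and leaving out 1 array could move their median to either side. Of 8 in the list 7 were measured, with Ndufaf8 not analysed here, and 3 were above 0 and 4 below, with a median difference of -0.01. With quantile normalization or cyclic loess 4 of 7 were above 0, and the median was 0.033 or 0.017. Without WT 1, 1 of 7 was above 0 and the median was -0.19. Without any 1 of Het 3, Het 4, WT 2 or WT 5, 4 of 7 were above 0, with medians of 0.0027 to 0.032. Leaving out Het 1, Het 2, Het 5, WT 3 or WT 4 kept the median below 0. With array weights the count was 1 of 7 (median -0.13), without WT 1 and Het 2 together 2 of 7 (-0.20), and with macrophage markers as a covariate 5 of 7 (0.0058). None had an unadjusted p under 0.05. Their roles are known mainly from human cells. Ndufaf1, part of the complex that builds the proximal membrane arm, measured 7.24, 7.13, 7.31, 7.46 and 7.20 in Het arrays, against 7.14, 7.55, 7.47, 7.50 and 7.52 in WT arrays. All 5 Het arrays lay below 4 of the WT arrays and WT 1 lay among them, so the difference of -0.17 (SE 0.106, limma adjusted p = 0.539) was -0.24 without WT 1 (unadjusted p = 0.0278 and adjusted p = 0.295).

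Ndufaf2, the factor replaced by Ndufa12, measured 8.11, 7.63, 7.87, 7.57 and 7.14 in Het arrays, against 6.92, 7.74, 8.46, 8.26 and 7.94 in WT arrays. WT 1 was the lowest and WT 3 the highest of all 10 arrays. The difference of -0.20 (SE 0.276) was -0.44 without WT 1, -0.05 without WT 3 and 0.0058 with macrophage markers as a covariate. Ndufaf4, which acts with Ndufaf3 on the early Q module, measured 8.09, 7.72, 7.67, 7.56 and 7.33 in Het arrays, against 6.67, 7.45, 7.89, 8.09 and 8.03 in WT arrays. Its difference of 0.05 (SE 0.258) was -0.19 without WT 1 and 0.16 without WT 4. Ndufaf3 behaved otherwise than its partner, with 8.96, 9.18, 8.98, 9.41 and 9.37 in Het arrays, against 9.19, 9.42, 8.53, 8.46 and 8.95 in WT arrays, and a difference of 0.27 (SE 0.191, limma adjusted p = 0.568). Ndufaf6 was at -0.18 (SE 0.135). Ndufaf7, an arginine methyltransferase of early assembly, was at 0.08 (SE 0.133) and at -0.02 without WT 1, and Ndufaf5, which hydroxylates an arginine of Ndufs7, was at -0.01 (SE 0.107).

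Assembly factors without the Nduf name were examined as a separate list of 14, of which 13 were measured. Here 6 differences were above 0 and 7 below, with a median of -0.0091, and 0 passed adjustment. At an unadjusted p under 0.05, 1 was higher in Het and 2 were lower, where 11% of all genes had such a p. Leaving out 1 array moved the list from 2 of 13 above 0 (median -0.061, without Het 4) to 9 of 13 (0.016, without Het 2), and the median was -0.098 without WT 1. Dmac2, a factor of the distal membrane arm, averaged 7.33 ± 0.165 in Het arrays and 7.63 ± 0.162 in WT arrays (SD, n = 5 each), a difference of -0.30 (limma adjusted p = 0.393). Tmem126a, which serves the same arm, was at -0.46 (SE 0.173, limma adjusted p = 0.396). Timmdc1, a membrane arm factor of early assembly that was named after its values were seen, was at 0.22 (SE 0.089, limma adjusted p = 0.414). The groups overlapped for Dmac2 and Tmem126a and did not for 2 of the 13, against 2.28% of all genes. These were Timmdc1, with every Het array above every WT array, and Tmem70, known best for its part in ATP synthase assembly, with every Het array below (-0.17, limma adjusted p = 0.492), also named after its values were seen. The subunits encoded in mitochondrial DNA were not analysed here.

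Both Nduf names outside complex I had a difference above 0, and 1 of 2 did with quantile normalization or cyclic loess. Ndufa4 encodes a subunit now placed in cytochrome c oxidase (complex IV). It measured 12.23, 12.21, 12.19, 12.17 and 12.23 in Het arrays, against 12.06, 12.23, 12.03, 12.01 and 12.10 in WT arrays, with WT 2 level with the highest Het arrays as for Ndufs5. The difference was 0.12 (SE 0.0787, limma adjusted p = 0.544). Ndufa4l2, its paralog known as a target of hypoxia-inducible factor, had means of 5.44 ± 0.170 in Het arrays and 5.36 ± 0.0553 in WT arrays (SD, n = 5 each). Het 5 alone, at 5.74, stood above the rest, and without it the difference of 0.08 was 0.0036.

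**Figure D3:**
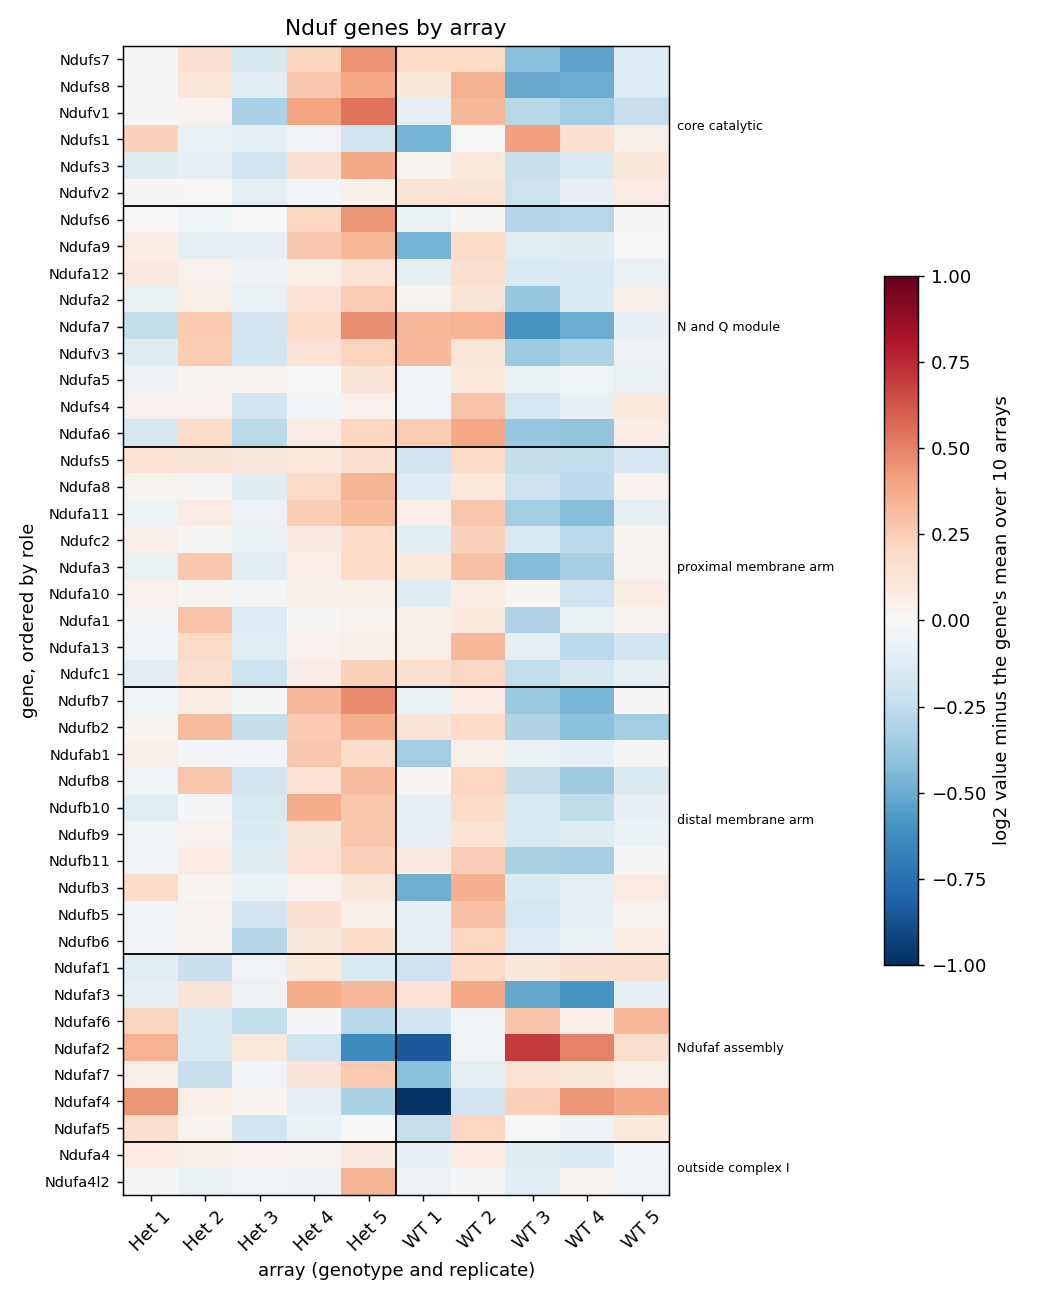
Each Nduf gene (row, ordered by role) in each array (column, Het left and WT right), coloured by its log2 value minus the gene's mean over the 10 arrays. Most subunit rows are high in Het 4, Het 5 and WT 2 and low in WT 3 and WT 4, while Ndufs1, Ndufaf2 and Ndufaf4 are lowest in WT 1.

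The members also co-varied between arrays of the same genotype. After each gene's genotype mean was taken out, the mean correlation between 2 members over the 10 arrays was 0.421, against 0.0144 over all pairs of tested genes. It was 0.417 within the Het arrays and 0.437 within the WT arrays alone. Over the 34 subunits it was 0.609, over the 7 Ndufaf factors 0.294. Without WT 1 and Het 2 the subunits were at 0.729 and the Ndufaf factors at -0.0067, and with macrophage markers as a covariate they were at 0.690 and 0.182. These values describe the arrays and carry no test, since the points share arrays and their normalization. The tightest of 903 pairs was Ndufb11 with Ndufs8 (r = 0.99), and the most opposed was Ndufaf2 with Ndufv3 (r = -0.91).

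Each member was also set against the mean of the other 42. The correlation was above 0.7 for 26 members, between 0 and 0.7 for 13 and below 0 for 4. Of the subunits, 33 of 34 had a correlation of 0.56 or more, led by Ndufc2 of the proximal arm (0.95), Ndufb6 (0.94) and Ndufb5 (0.94). The exception was Ndufs1, at -0.30. The assembly factors ran from -0.52 (Ndufaf2) and -0.36 (Ndufaf4) through -0.17 (Ndufaf6), 0.016 (Ndufaf7), 0.15 (Ndufaf1) and 0.54 (Ndufaf5) to 0.83 (Ndufaf3). Of the 24 members with a window whose correlation was above 0.7, 6 held the YY1 core. Of the other 14, 1 did, Ndufa9, which lay just under the cut at 0.69. In the same order the ETS core stood in 4 and 1, the NRF1 core in 2 and 2, and the CCAAT box in 7 and 5. These splits were not tested. Without WT 1 and Het 2, the arrays highest in macrophage markers, Ndufs1 was at -0.59, Ndufaf2 at -0.85 and Ndufaf4 at -0.70, and the other 33 subunits at 0.63 or more. With macrophage markers as a covariate these values were -0.21, -0.49, -0.26 and 0.60 or more.

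**Figure D4:**
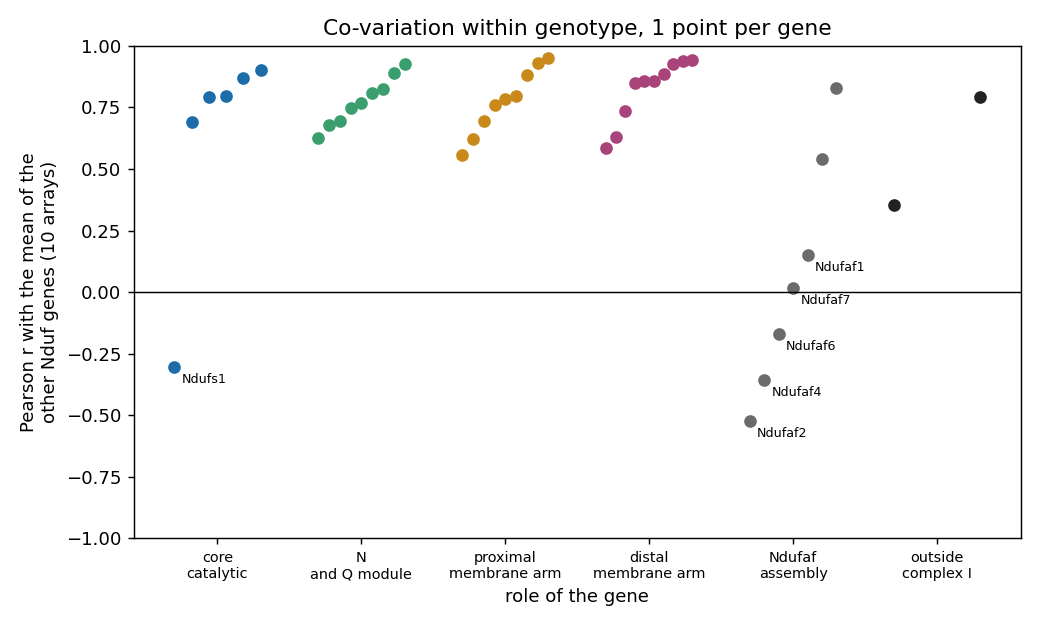
Pearson correlation of each Nduf gene with the mean of the other Nduf genes over 10 arrays, after removing genotype means, 1 point per gene by role. 33 of the 34 subunits lie at 0.56 or above, Ndufs1 lies at -0.30, and 3 of 7 assembly factors lie below 0.

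By array, the mean of the 43 members was 9.54, 9.58, 9.42, 9.64 and 9.70 in Het 1 to 5, against 9.44, 9.69, 9.36, 9.35 and 9.52 in WT 1 to 5. WT 3 and WT 4 were the lowest and WT 2 was level with the highest Het arrays. WT 3 and WT 4 were also among the 3 arrays lowest in macrophage markers, at 6.18 and 5.93, while WT 5 at 6.09 had members near the middle. Het 2 and WT 1, with macrophage means of 10.09 and 9.62, were not at either end. With the macrophage mean as a covariate the members' median difference was 0.094, with 33 of 43 above 0. Without WT 1 and Het 2 together it was 0.11, with 34 above 0 and 0 members at an unadjusted p under 0.05, against 16.1% of all genes. What share of the members' pattern comes from other cells in the sort was not tested.

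**Figure D5:**
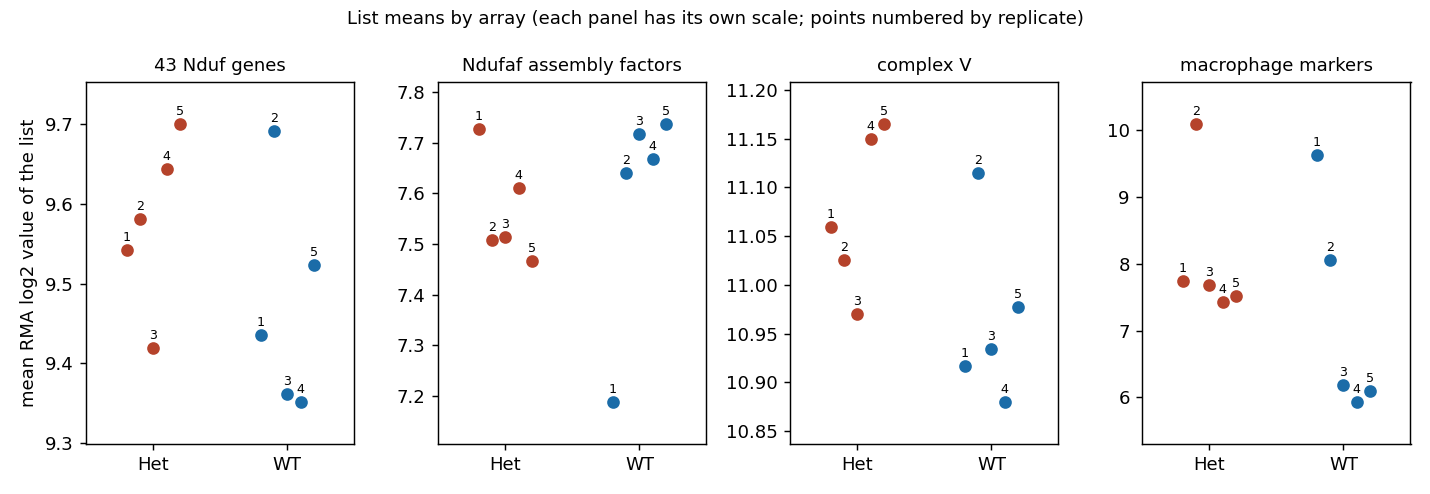
Mean RMA log2 value per array of the 43 Nduf genes, the 7 measured Ndufaf factors, complex V and macrophage markers, with Het left and WT right in each panel and points numbered by replicate; panels have their own scales. The Nduf and complex V panels share high values in Het 4, Het 5 and WT 2, WT 1 is lowest for the Ndufaf factors at 7.19, and Het 2 and WT 1 are highest for macrophage markers.

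The other respiratory complexes were read from the same fit for comparison. Complex V (ATP synthase) had 15 of 18 differences above 0 and a median of 0.15 (12 of 18 and 0.11 with quantile normalization), led by Atp5g1 and Atp5g2 of the membrane ring at 0.27 and 0.20. Complex II had 5 of 8 above 0 and a median of 0.097 (Sdha 0.14, Sdhc 0.15). Complex III had 7 of 12 and 0.087 (Uqcr11 0.31, Uqcrq 0.25), and complex IV had 13 of 20 and 0.031 (Cox10 0.25, Cox5a 0.14), though 9 of 20 and -0.0035 with cyclic loess. Single arrays moved these medians: complex II was at 0.035 without WT 4, complex III at 0.014 without Het 5 and 0.021 without Het 4 (0.0097 with array weights), and complex IV at 0.0032 without WT 4. Of these 58 genes 1, Atp5g1, had an unadjusted p under 0.05 and 0 passed adjustment. The mean correlation between 2 genes after removing genotype means was 0.06 for complex II, 0.181 for complex III, 0.136 for complex IV and 0.255 for complex V, against 0.609 for the complex I subunits. These lists mix subunits with assembly factors, and the gap between complexes was not tested.

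Genes that act on iron-sulfur clusters or on transcription of respiratory genes did not pass either. The iron-sulfur assembly list had 9 of 12 above 0 and a median of 0.085, with the ferredoxin Fdx1 at 0.23 and the glutaredoxin Glrx5 at 0.26. The regulators had 6 of 13 above 0 and a median of -0.05, with the mitochondrial transcription factor Tfb2m at -0.34 and Yy1 itself at -0.30. The regulators' median was 0.010 without Het 2, with 7 of 13 above 0. The iron-sulfur assembly median was 0.052 without WT 3, and 6 of 12 were above 0 with macrophage markers as a covariate. In both lists 0 genes had an unadjusted p under 0.05. After removing genotype means, 2 genes of the iron-sulfur assembly list correlated at 0.422 on average, against 0.421 for the 43 members. The regulators were at 0.1435. Outside the members, the genes most like their mean over the 10 arrays after removing genotype means were Bola1 (r = 0.98), which encodes a mitochondrial protein of iron-sulfur cluster handling, Mrpl57 (0.98) of the mitochondrial ribosome, Scnm1 (0.98), Ptrhd1 (0.97) and Commd2 (0.97). Their differences ran from 0.02 (Mrpl57 and Commd2) to 0.18 (Scnm1), and none passed adjustment.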

How the data were processed

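RNA of 10 samples (5 Het, 5 WT) was measured on 10 arrays. The authors deposited log2 values, summarised per gene by RMA in Expression Console per the submitters' processing notes. For that software the version and build are not given in the sources used here. Arrays are brought to one distribution by RMA, so a shift shared by most genes would be largely removed. Array medians ran from 5.38 to 5.49, and the number of arrays limits the precision.

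Of 35556 probe sets, 21789 had 1 gene symbol, 1621 several and 12146 were not listed. 1 probe set per symbol was kept, that of highest mean, and symbols whose mean was not above the 25th percentile of all symbols, 4.52, were dropped. Genotypes were compared with limma 3.58.1 (lmFit, eBayes) in R 4.3.3, adjusted by Benjamini-Hochberg over 14953 genes, with a threshold of 0.05. The fit was tested on simulated data. Alternatives covered the filter, probe set choice, normalization, variance model, array weights, covariates, the replicate block and leaving out arrays. All 43 members matched the RefSeq gene table (GRCm38.p6). Replicates are biological per the labels.

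The members and lists were chosen with earlier results of these data known, so no list was tested. Named were Hspa9, Ptprc, the core subunits, the Ndufaf genes, the names outside complex I, per other role the 3 members of smallest p and that of highest mean, the 10 members of smallest p, and per other list the 2 genes of smallest p, and the 5 genes outside the members most like their mean. Remaining genes were named after their values were seen.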

Additional observations from a re-analysis of the deposited data

Results flagged for a closer look

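Among 92 sets of 5 arrays (43 members, Hspa9, Ptprc and the members' mean, each in both genotypes), 6 had 1 array whose gap to the nearest other exceeded Dixon's 95% value of 0.71 of the range. Chance flags about 1 in 20 sets. WT 2 was the high array in 4 of the 6: Ndufs5 at 11.54 (other WT arrays 11.11 to 11.18), Ndufa5 at 8.98 (8.80 to 8.84), Ndufb9 at 10.89 (10.61 to 10.68) and Ndufa12 at 10.80 (10.49 to 10.58). WT 1 was low for Ndufaf1 at 7.14 (7.47 to 7.55). Het 5 was high for Ndufa4l2 at 5.74 (other Het arrays 5.33 to 5.41). The members share arrays and co-vary, so the WT 2 values are not independent, and their cause was not tested.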

How the results depend on the processing

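In all alternatives run, 0 of 43 members passed the adjusted threshold (0 of 42 where rows below the median were dropped), also at an adjusted p of 0.1. The smallest adjusted p of a member was 0.103 (Ndufs5, array weights, where 137 of all genes were called). The members' median difference kept its sign and ran from 0.075 (without Het 5) to 0.16 (without WT 2), where the median of all genes was 0.040 and 0.074. The count at an unadjusted p under 0.05, 2 over all arrays, was 1 with rows above the median row, quantile normalization, the replicate block or the Xist level as covariate, and 0 without WT 1 and Het 2 together. It ran from 0 (without WT 3 or WT 4) to 6 (without WT 2, against 13.6% of all genes) with 1 array left out. The Hspa9 difference was -0.79 with array weights (limma adjusted p = 0.0381) and ran from -0.84 to -0.62 without 1 array. With macrophage markers as a covariate it was -0.57 (limma adjusted p = 0.159). With plasmacytoid dendritic cell markers as a covariate it was -0.51 (limma adjusted p = 0.389). The 10 members of smallest p kept their sign in all 220 fits of 1 gene under 1 alternative, but they were picked by p in these same data. Other members changed sign when 1 array was left out. Examples are Ndufa6 (0.02, and -0.07 without WT 4) and Ndufs4 (-0.04, and 0.03 without WT 2). The mean correlation between members was 0.485 without WT 1 and Het 2 and 0.524 with macrophage markers as covariate, both alternatives chosen after seeing the data. A pairing by replicate number was not seen: deviations of same-numbered arrays correlated from -0.53 to 0.53, and 0 of 5 matched best with their own number. The deviations take in all tested genes, with the uneven macrophage markers, so this check cannot settle whether the numbers pair arrays.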
